A study of Mus musculus with 2 samples.

Results

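The 51 genes described here are the extracellular metalloproteinases and their tissue inhibitors in sarcoma cells in which circCsnk1g3 was silenced. They were chosen by symbol, and comprise 23 matrix metalloproteinase genes (Mmp), 24 genes whose symbol starts with Adamts and 4 tissue inhibitors of metalloproteinases (Timp), out of 25509 genes in the count table. Of the Adamts group, 19 are proteases (a disintegrin and metalloproteinase with thrombospondin motifs) and 5 are Adamtsl genes, whose Adamts-like products lack the protease domain. The study compared 1 library of cells transduced with shcircCsnk1g3, a lentiviral hairpin aimed at the backsplice junction of the circRNA, with 1 library of cells transduced with the control hairpin shCTR. Both libraries came from the same kind of cell: C57BL/6 mesenchymal cells that are p53-/- and overexpress Ccne1 from a retrovirus, which had grown as subcutaneous tumors, had been seeded in the lungs of secondary recipients and had been isolated again from lung foci before transduction. The labels do not say how many clones or animals stand behind each library. With 1 library per condition there was no replicate check and no test between conditions.

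Mmps are zinc-dependent endopeptidases that are made as inactive precursors and cleave collagens, gelatin, proteoglycans and many non-matrix proteins. Most are secreted, while the membrane-type Mmps sit on the cell surface. Adamts proteases are secreted and act on proteoglycans such as aggrecan and versican, on procollagen propeptides and on other matrix glycoproteins. Timps bind the active site of these enzymes and hold them in check, and in mesenchymal tumors the balance of both sides is known for its role in invasion and matrix turnover.

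The shcircCsnk1g3 library held 38792143 counts over all genes and the shCTR library 42709996. The log2 fold change of a gene is that of its TMM-scaled CPM (counts relative to library size, scaled so that the bulk of genes is level between the libraries), with a prior count of 2. It was taken where either library held 10 counts or more, and such genes are called tested. The range in parentheses after it is a 95% interval (Clopper-Pearson) for this ratio and reflects counting error alone. A gene counted 10 times per library had a half-width of 1.42 log2 units, a gene counted 100 times 0.41 and a gene counted 1000 times 0.13. Of 11 mesenchymal marker genes, 10 passed the count minimum, with 437591 summed counts after silencing against 497570, and Thy1 was nearly undetected (0 and 1 count). Vim alone gave 225330 and 282350 of these counts. The markers did not move together: 2 of the 10 intervals lay above 0 and 6 below, against 26.9% and 28.2% of all genes tested. They ran from -0.69 (-0.77 to -0.61) for Ly6a to 0.37 (0.35 to 0.39) for Col3a1. Markers of other cell types that a lung focus could hold were also counted. The 7 neutrophil markers summed to 4 counts in each library, the 7 lymphocyte markers to 0 and 3, the 6 endothelial markers to 19 and 29 and the 7 lung epithelial markers to 16 and 22, in the order shcircCsnk1g3 and shCTR. The 9 macrophage and osteoclast markers summed to 104 and 172 counts, of which Cd68 gave 87 and 155, a log2 fold change of -0.71 (-1.12 to -0.34), while Adgre1, Itgam and Lyz2 were at 0 in both. The part of Cd68-expressing cells in the differences below was not tested. The linear transcript of Csnk1g3, the host gene of the circRNA, had 2159 and 2411 counts (log2 fold change -0.05), and since the circRNA has no poly(A) tail its depletion was not measured in these libraries. Although the cells are labelled p53-/-, Trp53 had 3841 and 4334 counts (97.9 and 103 CPM), and a count per gene cannot tell whether these come from the disrupted allele. Ccne1 had 893 and 963 counts. In bulk RNA, fewer cells that express a gene and less RNA per cell cannot be told apart.

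Of the 51 genes, 28 reached the count minimum (11 Mmp, 10 Adamts, 4 Adamtsl and 3 Timp genes), and 16 had no count in either library. In the whole table, 12941 of 25509 genes reached the minimum and 9408 had no count. The 16 members were Mmp7, Mmp8, Mmp20, Mmp21, Mmp25 and Mmp27, then Adamts3, Adamts8, Adamts13 and Adamts15 to Adamts19, and last Adamtsl2 and Timp4. They include Mmp8, the neutrophil collagenase, and Adamts13, the protease that cleaves von Willebrand factor. A count of 0 allows up to 0.0765 CPM after silencing and 0.0710 CPM in the control (3 counts). The other 7 genes under the minimum had 0 to 7 counts. Among them were Mmp12, the macrophage elastase (0 and 1 count), and the rodent collagenase genes Mmp1a (0 and 2) and Mmp1b (3 and 0).

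Levels of different genes were compared per length, as CPM per kb of the merged exons of each gene. Mmp2 (gelatinase A) and Timp1 led, at 161 and 147 CPM per kb after silencing and at 160 and 172 in the control, so that their order differed between the libraries. Timp2 followed with 107 and 142, Mmp14 (membrane-type 1 Mmp, the cell-surface activator of Mmp2) with 53.6 and 57.1 and Timp3 with 43.0 and 34.0. All other members were below 17 CPM per kb in both libraries. In the next tier, Mmp10, Adamts14, Mmp11 and Adamts1 had 10.6, 11.4, 14.4 and 13.4 CPM per kb after silencing, against 16.6, 14.7, 11.3 and 8.16. Mmp10 was the highest of these 4 in the shCTR library and the lowest in the shcircCsnk1g3 library. Mmp2 and Mmp14 together made up most of the Mmp counts: Mmp2 held 56.9% of them after silencing and 55.0% in the control, and Mmp14 held 33.4% and 34.7%.

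**Figure D1:**
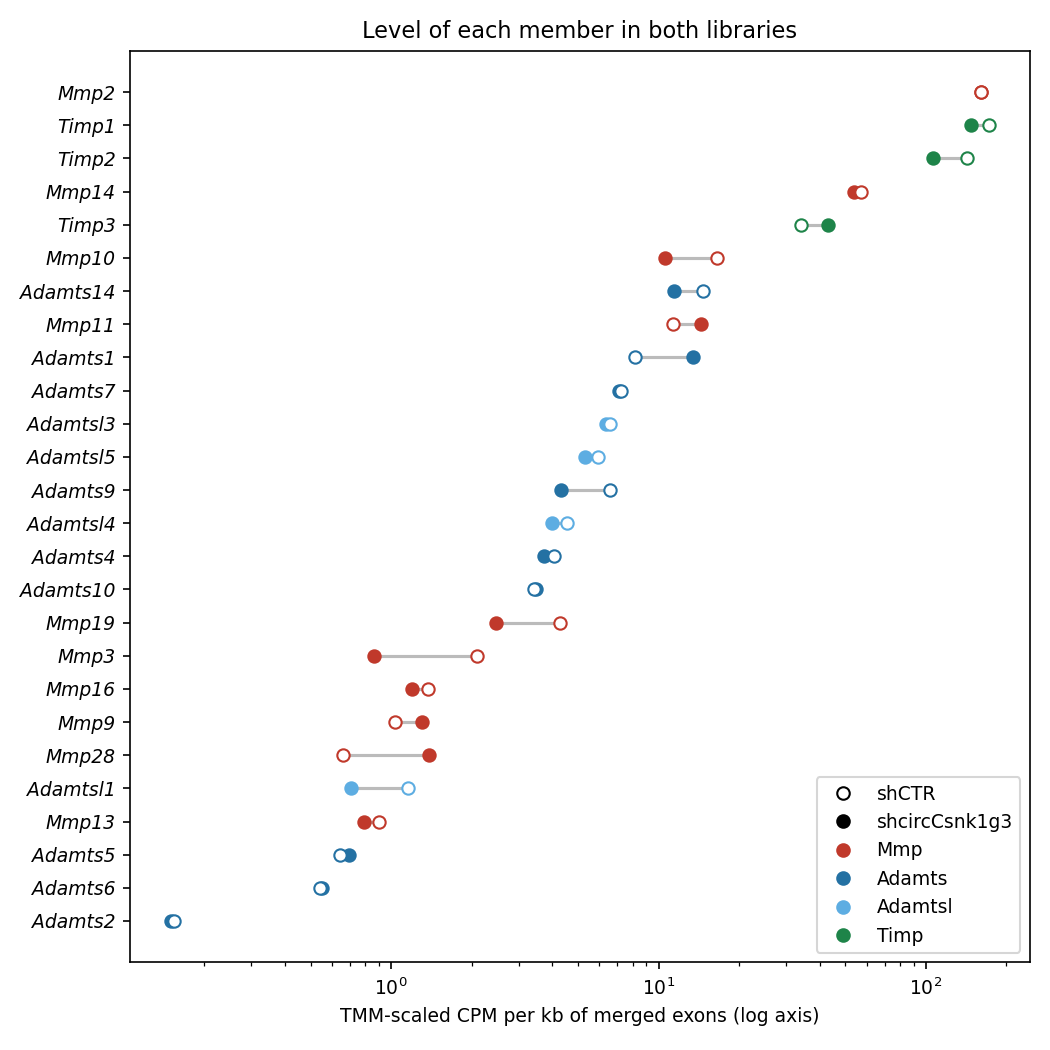
Level of the 26 members that reached 100 summed counts, as TMM-scaled CPM per kb of merged exons on a log axis, with filled points for shcircCsnk1g3, open points for shCTR and a line between them. Mmp2, Timp1, Timp2, Mmp14 and Timp3 stand above 30 CPM per kb in both libraries, and all others lie below 17.

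Between the libraries the members differed in both directions. After silencing, 1 of the 28 genes tested was at least 2-fold higher (Mmp28) and 1 was at least 2-fold lower (Mmp3), whereas of all 12941 genes tested 2.13% were at least 2-fold higher and 2.55% at least 2-fold lower. At 1.5-fold, 2 members were higher (Mmp28 and Adamts1), against 5.39% of all genes, and 5 were lower (Mmp3, Mmp19, Adamtsl1, Mmp10 and Adamts9), against 6.31% of all genes. The 2 higher genes are 7.14% and the 5 lower genes 17.9% of the members tested. All 7 had at least 200 summed counts, and of the 10662 genes of the whole table at that depth, 1.99% were at least 1.5-fold higher and 3.14% at least 1.5-fold lower, against 8.33% and 20.8% of the 24 members at that depth. The interval lay above 0 for 5 members and below 0 for 12, or 17.9% and 42.9% of those tested, where the same was true of 26.9% and 28.2% of all genes. The median log2 fold change was -0.11 over the 28 members and 0.00 over all genes tested. By family it was -0.15 for Mmp, -0.04 for Adamts with Adamtsl and -0.23 for Timp. Over members with at least 200 summed counts the Mmp and Adamts medians were alike, at -0.09 and -0.09, and without TMM factors the Adamts median was -0.01.

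**Figure D2:**
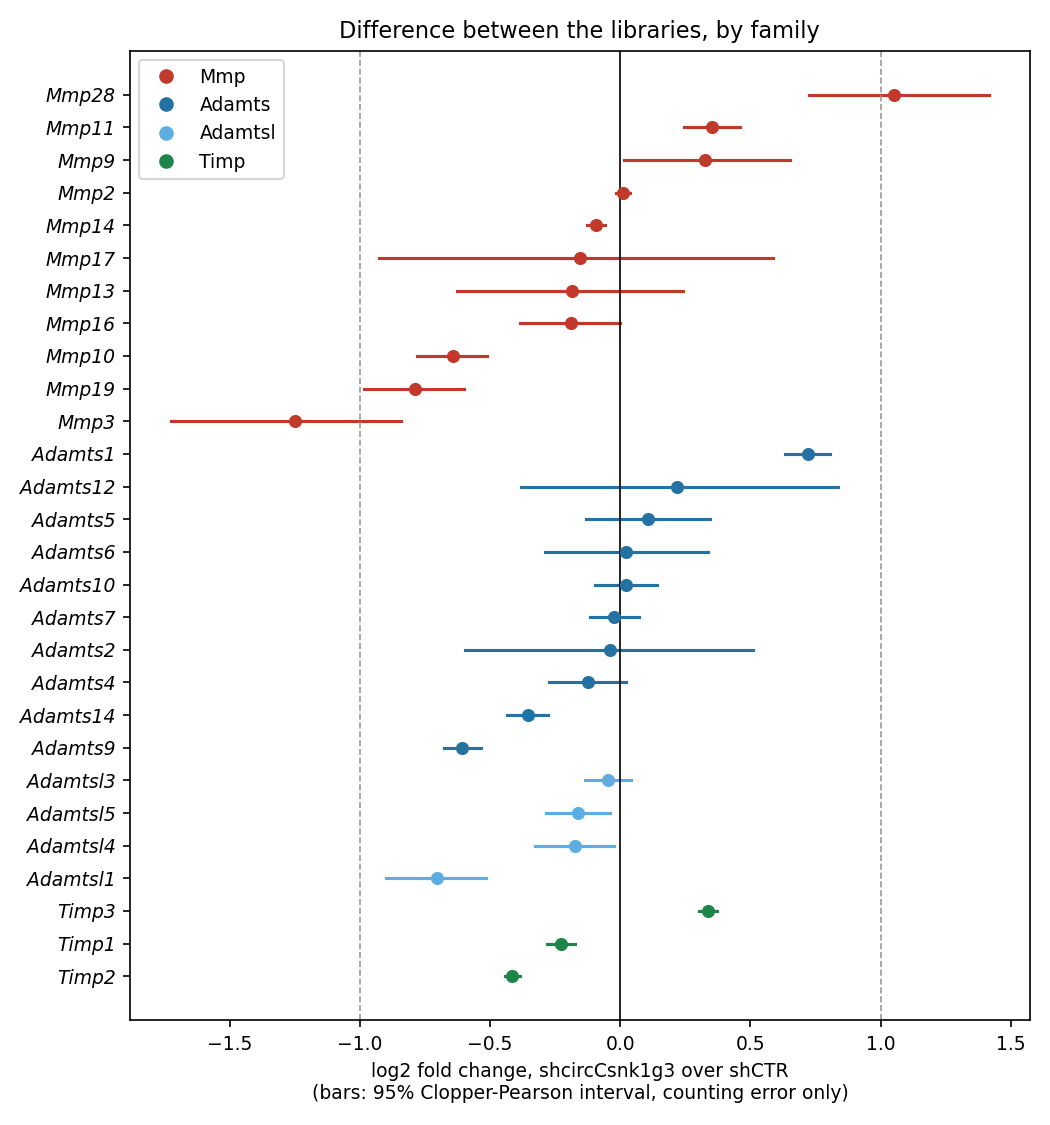
Log2 fold change of shcircCsnk1g3 over shCTR for the 28 members tested, by family, with the 95% Clopper-Pearson interval as a bar and dashed lines at 2-fold. Mmp28 and Mmp3 lie beyond 2-fold on opposite sides, Mmp2 lies at 0.01, and the 3 Timps are split, with Timp3 above 0 and Timp1 and Timp2 below.

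The Timps, the inhibitors of the family, went in different directions. Timp2 (ENSMUSG00000017466, chromosome 11, 118301069 to 118355740, GRCm38), which also serves as the bridge by which Mmp14 binds the Mmp2 precursor, had 16281 counts after silencing against 23371. This is 415 against 553 CPM, a log2 fold change of -0.41 (-0.44 to -0.39). Timp1 (chromosome X, 20870166 to 20874735), a secreted inhibitor of many Mmps, was also lower, with 5112 and 6447 counts (130 and 153 CPM) and a log2 fold change of -0.23 (-0.28 to -0.17). Timp3 (chromosome 10, 86300372 to 86349506), which is bound to the matrix and inhibits Adamts4, Adamts5 and Adam17 as well as Mmps, was higher. Its counts were 13716 and 11704 (350 and 277 CPM), which gave 0.34 (0.30 to 0.37). The share of Timp2 in all Timp counts was 46.4% after silencing and 56.3% in the control, and that of Timp3 was 39.1% and 28.2%. Summed per length, Timps stood at 296 and 348 CPM per kb and Mmps at 248 and 256, so that the ratio of Timps to Mmps was 1.19 after silencing against 1.36. Without length, Timps summed to 895 and 983 CPM and Mmps to 955 and 981 CPM. Whether Timps exceeded Mmps after silencing therefore depended on the length scaling. Of the merged exons of Timp3, 21.3% overlap Syn3 on the opposite strand, and Syn3 had 11 and 8 counts.

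Among the Mmps, the gene with the highest level was nearly level between the libraries. Mmp2 (ENSMUSG00000031740, chromosome 8, 92827291 to 92853420) had 21318 counts after silencing against 22811, or 544 and 540 CPM, with a log2 fold change of 0.01 (-0.02 to 0.04). Mmp9 (gelatinase B, chromosome 2, 164940780 to 164955850), the other gelatinase, stood at 1.30 and 1.04 CPM per kb, so that Mmp2 was 124 and 155 times more abundant per length. Its counts were 181 and 155, with 0.33 (0.01 to 0.65).

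Of the membrane-type Mmps, 3 passed the count minimum, and all 3 log2 fold changes were below 0, as were those of 49.6% of all genes tested. Mmp14 (ENSMUSG00000000957, chromosome 14, 54431612 to 54445364) had 12529 and 14387 counts, or 319 and 341 CPM, with a log2 fold change of -0.09 (-0.13 to -0.06). Mmp16 (membrane-type 3, chromosome 4, 17852893 to 18119145) had 408 and 502 counts and -0.19 (-0.38 to -0.00). Mmp17, which is held in the membrane by a lipid anchor, had 29 and 35 counts, and its interval (-0.93 to 0.59) spanned 0.

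Among the other secreted Mmps, Mmp3 (stromelysin 1, ENSMUSG00000043613, chromosome 9, 7445822 to 7455975) had 61 counts after silencing and 159 in the control, 1.56 against 3.76 CPM. Its log2 fold change of -1.25 (-1.73 to -0.84) ranked 42nd from the bottom of the 10662 genes that had 200 summed counts or more. Mmp10 (stromelysin 2, ENSMUSG00000047562, chromosome 9, 7502352 to 7510240), its closest relative, had 716 and 1206 counts, or 18.3 and 28.5 CPM, and a log2 fold change of -0.64 (-0.78 to -0.51). Of the 50-base stretches of Mmp10 transcripts, 8.37% also occur in Mmp3, and of those of Mmp3, 8.39% occur in Mmp10 or the gene Gm15244, so that a part of their reads could be divided between these genes by the authors' counting. Mmp13 (collagenase 3), also on chromosome 9, had 83 and 102 counts, and its interval (-0.63 to 0.24) spanned 0.

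Mmp19 (ENSMUSG00000025355, chromosome 10, 128790910 to 128800824) had 343 and 640 counts (8.75 and 15.1 CPM) and a log2 fold change of -0.79 (-0.99 to -0.60). Of its merged exons, 22.3% overlap Tmem198b on the opposite strand, which had 1372 and 1284 counts. The kit was stranded, but use of the strand in counting is not given in the sources used here, and without it reads of both genes cannot be told apart there. Mmp28 (epilysin, ENSMUSG00000020682, chromosome 11, 83440768 to 83463071) went the other way. It had 210 counts after silencing and 108 in the control, 5.36 against 2.56 CPM, with a log2 fold change of 1.05 (0.73 to 1.42), the 55th highest among genes with at least 200 summed counts. With a prior count of 10 its log2 fold change was 0.999, just under 2-fold. It overlaps the gene 1700020L24Rik (30 and 18 counts) on the opposite strand over 12.0% of its exons. Mmp11 (stromelysin 3, chromosome 10, 75923222 to 75936496), which unlike most secreted Mmps is activated inside the cell by furin, had 1572 and 1326 counts, or 40.1 and 31.4 CPM, with a log2 fold change of 0.35 (0.25 to 0.46).

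**Figure D3:**
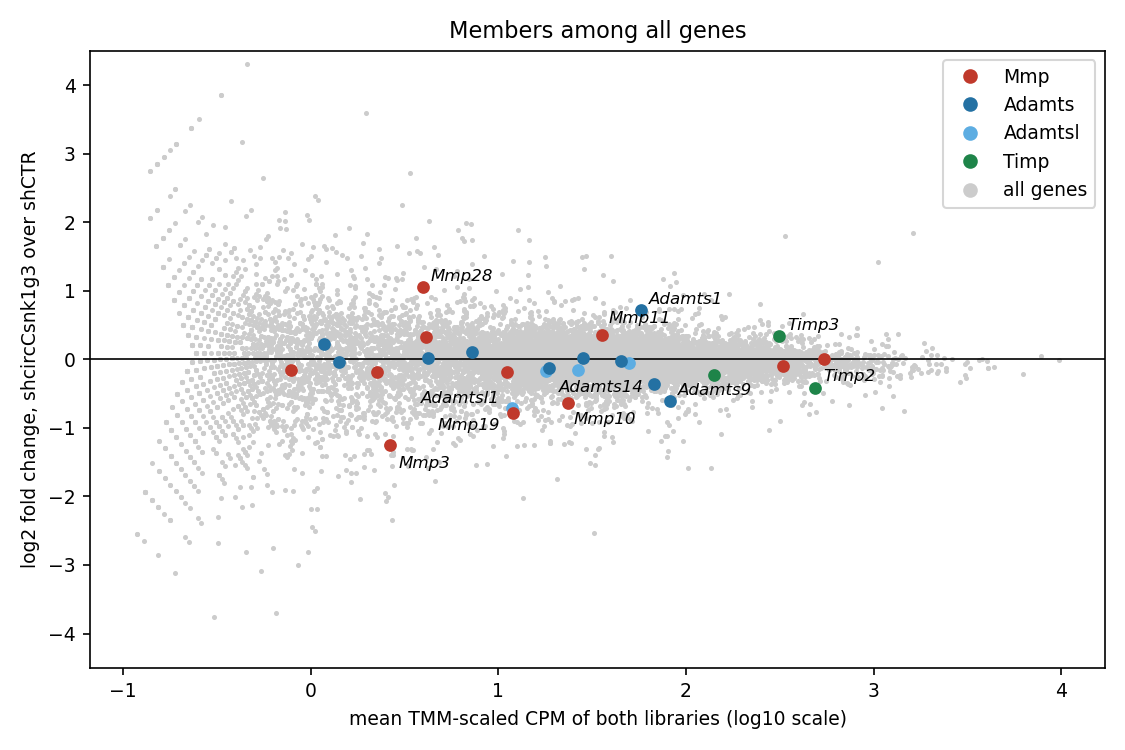
Log2 fold change of all 12941 genes tested against their mean TMM-scaled CPM on a log10 scale, in gray, with the 28 members in color and those beyond 0.33 in either direction named (8 gray genes lie beyond the plotted limit of 4.5). Mmp3 (-1.25) and Mmp28 (1.05) lie farthest from 0 among the members.

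Mmp3, Mmp10 and Mmp13 belong to a cluster of 10 Mmp genes that spans 427.1 kb of chromosome 9, from 7272514 to 7699585 (GRCm38). The other 7 genes of the cluster had at most 3 counts in either library. The counts of the cluster summed to 863 after silencing and 1470 in the control, a log2 ratio of -0.66 (-0.78 to -0.54), of which Mmp10 made up the largest part. AP-1, the dimer of Jun and Fos proteins, and the ETS factor PEA3 are known to bind promoters of several of these genes. RefSeq promoters (GRCm38.p6, 250 bases before to 50 after the start) were found for 36 of the 51 members and were searched on both strands. The letters searched were TGANTCA for AP-1. Those for the ETS factor PEA3 were AGGAAG. The TATA box, where the general transcription machinery binds, was searched as TATAAA. The AP-1 letters read alike on both strands, and no matches of different motifs overlap in the promoters printed. The 250 bases before the start are printed for Mmp3 and Mmp10 (chr9:7445572-7445821 and chr9:7502092-7502341, plus strand), which lie in the cluster and were lower, and for Adamts1 (chr16:85803114-85803363, minus strand), which was higher. Capitals mark the motifs.
Mmp3: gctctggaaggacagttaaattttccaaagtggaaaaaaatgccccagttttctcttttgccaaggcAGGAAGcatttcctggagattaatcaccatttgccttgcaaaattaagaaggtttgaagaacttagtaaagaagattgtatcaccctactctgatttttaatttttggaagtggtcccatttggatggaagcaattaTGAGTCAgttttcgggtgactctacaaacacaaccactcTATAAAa
Mmp10: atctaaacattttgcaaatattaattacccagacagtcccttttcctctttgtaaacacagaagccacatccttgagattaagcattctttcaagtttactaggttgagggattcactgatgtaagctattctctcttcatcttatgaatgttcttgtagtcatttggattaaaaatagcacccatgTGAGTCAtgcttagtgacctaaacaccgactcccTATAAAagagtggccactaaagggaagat
Adamts1: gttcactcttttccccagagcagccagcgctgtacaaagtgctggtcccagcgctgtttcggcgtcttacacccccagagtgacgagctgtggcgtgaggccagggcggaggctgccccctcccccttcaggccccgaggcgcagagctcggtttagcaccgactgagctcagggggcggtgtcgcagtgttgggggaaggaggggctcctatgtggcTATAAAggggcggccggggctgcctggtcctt

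In the Mmp3 promoter the AP-1 letters TGAGTCA begin 46 bases before the annotated start, AGGAAG 183 bases before it and TATAAA 7 bases before it. In the Mmp10 promoter TGAGTCA begins 63 bases and TATAAA 29 bases before the start, and the Mmp13 promoter holds TGACTCA 35 bases before it. Counted by gene, with a match in any promoter of the gene, 8 of the 10 genes in the cluster held the AP-1 letters, against 0 of 8 other Mmps, 0 of 14 Adamts and Adamtsl genes and 0 of 4 Timps. The letters searched allow any middle base. In Mmp20 the match was TGAATCA, whereas the other matches of the cluster were TGAGTCA or TGACTCA. Counted by promoter, 7.81% of all 32851 promoters in the table held them, and since some genes have several promoters (39 for the 36 members), the units differ. TATAAA was found for 9 of the 10 genes of the cluster and in 13.6% of all promoters, and AGGAAG for 7 of the 10 genes and in 35.4% of all promoters. The TATAAA match of Mmp8 was on the minus strand, from 3 bases before the start, and that of Mmp12 began 4 bases after it. The Mmp28 promoter held none of the 3 motifs, and the Adamts1 promoter held TATAAA, 32 bases before the start. The letters are a description of these windows, and 5 of the 8 genes with the AP-1 letters were not expressed above 3 counts.

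**Figure D4:**
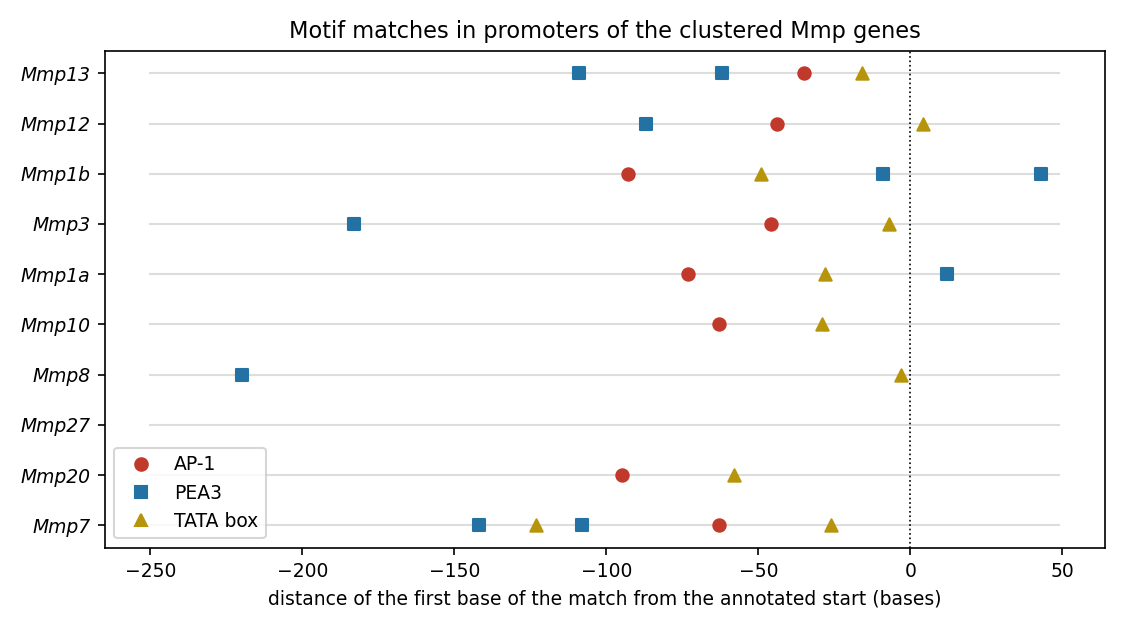
Matches to AP-1 (TGANTCA), PEA3 (AGGAAG) and TATA box (TATAAA) letters in the RefSeq promoters of the 10 Mmp genes of the chromosome 9 cluster, by distance of the first base of a match from the annotated start, with genes in their order along the chromosome. AP-1 letters lie between 35 and 95 bases before the start in 8 genes, and Mmp8 and Mmp27 have none (Mmp7 and Mmp12 have more than 1 annotated start, and matches of all their windows are drawn).

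Among the Adamts proteases, those that cleave aggrecan and versican held the largest differences, in opposite directions. Adamts1 (ENSMUSG00000022893, chromosome 16, 85793827 to 85803113) had 2795 counts after silencing and 1828 in the control, 71.3 against 43.3 CPM. Its log2 fold change was 0.72 (0.63 to 0.81), the 128th highest among genes with at least 200 summed counts. Adamts9 (ENSMUSG00000030022, chromosome 6, 92772699 to 92943492) had 2554 and 4191 counts, or 65.1 and 99.2 CPM, with -0.61 (-0.68 to -0.54), the 308th lowest. In the control Adamts9 held 22.6% of the Adamts and Adamtsl counts and Adamts1 9.87%, and after silencing they held 16.2% and 17.7%. Adamts5 (chromosome 16, 85856173 to 85901828), which lies next to Adamts1 and is the main aggrecanase of mouse cartilage, had 294 counts in each library and a log2 fold change of 0.11 (-0.13 to 0.35). Adamts4 had 701 and 824 counts, and its interval (-0.27 to 0.02) also spanned 0. With Adamts15 and Adamts20, the genes of this kind summed to 6349 and 7143 counts, and the median log2 fold change of the 4 tested was -0.01.

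Adamts14 (ENSMUSG00000059901, chromosome 10, 61197112 to 61273438), which removes the amino-terminal propeptide of fibrillar procollagens, was the second Adamts protease with an interval below 0. It had 2333 counts after silencing and 3217 in the control (59.5 and 76.1 CPM), that is -0.36 (-0.43 to -0.28). Adamts2, an enzyme of the same kind, was far less abundant, with 55 and 61 counts and an interval from -0.59 to 0.51, and Adamts3 was not detected. The intervals of the remaining proteases tested spanned 0. Adamts7 and Adamts12, which cleave cartilage oligomeric matrix protein, had log2 fold changes of -0.02 (-0.12 to 0.07, with 1753 and 1920 counts) and 0.22 (-0.38 to 0.84, with 50 and 46 counts). Adamts10 and Adamts6, which act on fibrillin microfibrils, had 0.02 (-0.10 to 0.14, with 1122 and 1189 counts) and 0.02 (-0.29 to 0.34, with 168 and 178 counts).

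All 4 detected Adamtsl genes had a log2 fold change below 0, and the intervals of 3 lay below 0, where 49.6% of all genes tested were lower and 28.2% had an interval below 0. The largest difference was that of Adamtsl1 (ENSMUSG00000066113, chromosome 4, 85514172 to 86428385), with 355 counts after silencing and 624 in the control, 9.05 against 14.8 CPM and a log2 fold change of -0.70 (-0.90 to -0.52). Adamtsl4, which binds fibrillin, had 660 and 803 counts and -0.17 (-0.33 to -0.03). Adamtsl5 had 986 and 1188 counts and -0.16 (-0.28 to -0.04), and Adamtsl3 had 1928 and 2146 counts with an interval that spanned 0 (-0.14 to 0.04). The median was -0.17 for the 4 Adamtsl genes and 0.00 for the 10 Adamts proteases tested.

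Summed over each family, the log2 ratio of counts was -0.04 (-0.06 to -0.02) for Mmps, -0.12 (-0.16 to -0.09) for Adamts with Adamtsl genes and -0.13 (-0.16 to -0.11) for Timps. The sum of Mmps was set by Mmp2 and Mmp14 and did not follow the larger differences of the less abundant members. Without TMM factors these ratios were -0.0072, -0.094 and -0.10.

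The genes around these families were described from 6 lists, to be read against all genes tested. Of all genes tested 50.4% were higher and 49.6% lower, with an interval above 0 for 26.9% and below 0 for 28.2%. At 200 summed counts or more, the intervals of 29.5% lay above 0 and those of 31.0% below. The interval narrows with depth, so a deep gene lies off 0 at a small difference. These shares are not matched to the depth of the lists. Of the plasminogen activator system, which makes plasmin, an activator of Mmp precursors, 7 of 11 genes were tested, with 2 intervals above 0 and 5 below, and a median of -0.34. Plat (tissue plasminogen activator) had 3008 and 5467 counts and -0.75 (-0.82 to -0.69). Plau (urokinase) had 1176 and 1722 counts and -0.44 (-0.55 to -0.33). The urokinase receptor Plaur had 3710 and 5052 counts and -0.34 (-0.40 to -0.28), and Lrp1, a receptor that clears these proteases, had -0.29 (-0.31 to -0.27).

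Of the genes for activation, anchoring and other inhibitors of metalloproteinases, 8 of 15 were tested, all 8 with a log2 fold change below 0 and 6 with an interval below 0 (median -0.16), against 49.6% and 28.2% of all genes. Reck, a membrane-anchored inhibitor of Mmps, had 74 counts after silencing and 147 in the control and -0.87 (-1.31 to -0.47), the largest difference of this list. Bsg (basigin, an inducer of Mmps) had -0.22 (-0.25 to -0.19), and Pcolce and Pcolce2, enhancers of procollagen processing, had -0.17 (-0.20 to -0.14) and -0.27 (-0.35 to -0.20).

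Of 33 Adam genes, the membrane-bound relatives of Adamts proteases, 10 were tested, with 2 intervals above 0, 4 below and a median of -0.11. This median was -0.24 in the deposited table and for genes with at least 50 or 200 summed counts, and 0.054 without a count minimum. Adam8 had 233 and 674 counts and -1.42 (-1.65 to -1.21), Adam19 had 1384 and 2336 counts and -0.65 (-0.74 to -0.55), Adam15 had -0.30 (-0.34 to -0.25), and Adam12 had 0.51 (0.29 to 0.75). Of other matrix proteases 9 of 16 were tested, with 0 intervals above 0, 7 below and a median of -0.19 (-0.11 without a count minimum). The values were -0.50 (-0.73 to -0.28) for Htra3, -0.39 (-0.43 to -0.35) for Htra1, -0.39 (-0.48 to -0.30) for Ctsh and -0.22 (-0.24 to -0.20) for the cathepsin gene Ctsl.

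Of the matrix proteins that these enzymes cleave, 19 of 23 genes were tested, with 10 intervals above 0, 8 below and a median of 0.04 (0.072 without TMM factors and 0.013 at 200 summed counts or more). Acan (aggrecan, a substrate of Adamts1, Adamts4, Adamts5 and Adamts9) had 372 counts after silencing against 2331, and -2.53 (-2.70 to -2.38), the lowest value of the 10662 genes with 200 summed counts or more (rank 1). The cartilage marker list summed to 2629 and 4876 counts, but it holds Acan itself, so its difference largely restates that of Acan. Of its other genes, Sox9 had 2256 and 2535 counts and -0.06 (-0.14 to 0.02), and Col2a1 had 1 and 10 counts. Matn1 and Col9a1 had 0 in both libraries. The part of cartilage-like cells in the result was not tested. Of the other substrates named by the same rule, Thbs1 had -0.75 (-0.77 to -0.73), Bgn (biglycan) -0.50 (-0.52 to -0.47) and Thbs2 0.37 (0.36 to 0.39). Of the AP-1, ETS and Runx factors known to bind Mmp promoters, all 15 were tested, with 7 intervals above 0, 3 below and a median of 0.12. Fos had 319 and 211 counts and 0.70 (0.45 to 0.96), Etv5 had 0.35 (0.30 to 0.39), Ets1 had -0.28 (-0.34 to -0.21), and Jun had 12436 and 16417 counts and -0.29 (-0.33 to -0.26).

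**Figure D5:**
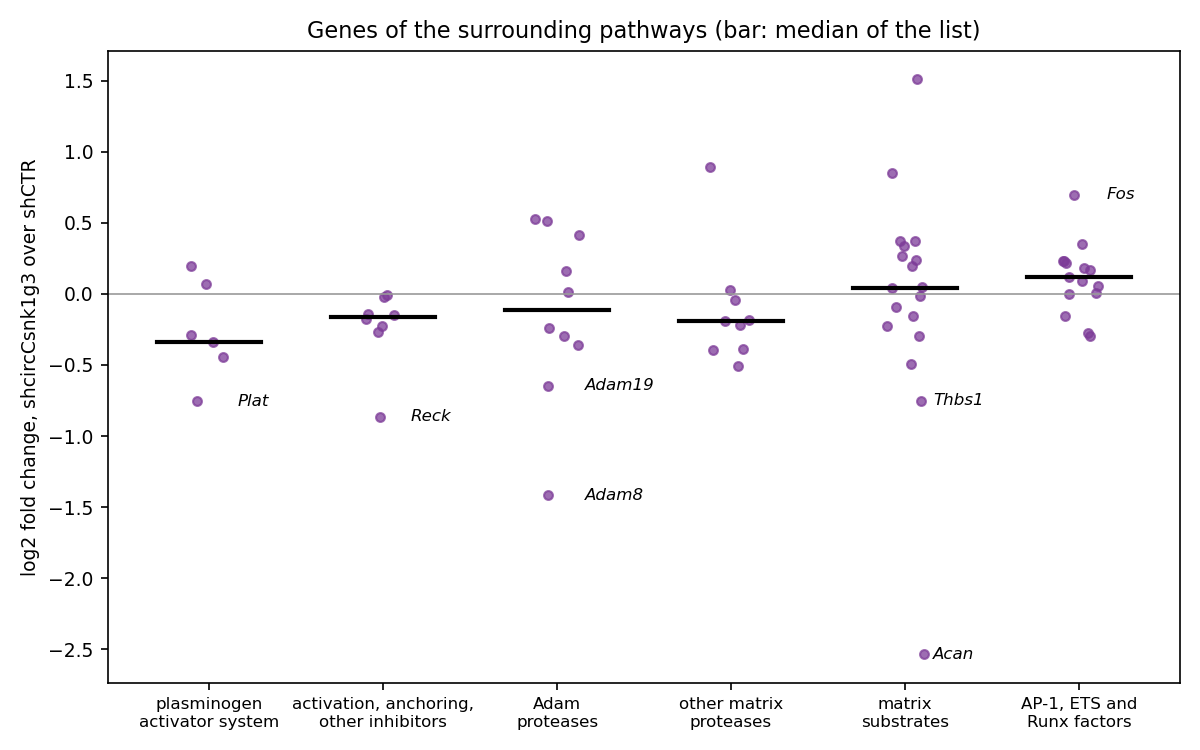
Log2 fold change of shcircCsnk1g3 over shCTR for the tested genes of the 6 lists, 1 point per gene, with the median of each list as a black bar (Serpinb2 and Col2a1, at 1 and 10 counts, are in the medians but not drawn, since their ratio has the floor on 1 side). The medians run from -0.34 for the plasminogen activator system to 0.12 for the AP-1, ETS and Runx factors, and Acan and Adam8 lie farthest below 0.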

How the data were processed

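RNA with a poly(A) tail from 2 libraries was sequenced with a stranded kit. The authors aligned reads to GRCm38 with STAR, estimated an expected count per gene with RSEM and deposited these as whole numbers, without normalization. RSEM divides reads that match several genes, which bears on Mmp3 and Mmp10. The authors also deposited a signal table of TMM-scaled CPM from edgeR for 11624 genes, which holds all 28 members tested and was used as an alternative. The 92 spike-in rows, at 0 in both libraries, were left out.

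TMM factors came from edgeR 4.0.16, run in R 4.3.3, on genes that reached 10 counts in either library. DESeq2 1.42.0 gave size factors for an alternative. Ratios, intervals, motifs and figures were computed in python 3.11.15 (scipy 1.17.1, numpy 2.4.6, pandas 2.3.3) and drawn with matplotlib 3.10.9. With 1 library per condition no count model could be fitted. The steps were tested on simulated counts. Coordinates, exons and lengths are from GENCODE M21, in which 25251 of the 25509 gene identifiers were found, and promoters are from RefSeq. Protein sequences were not used here.

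The members, lists and rules were chosen with earlier results of these data known, and the grouping by role after the values were seen. Members named with values are the Timps, genes with at least 100 summed counts and genes at least 2-fold different with an interval off 0. Others are named by presence or low count. Of each list, up to 4 genes with at least 200 summed counts and the largest differences are named. Mmp17, Adamts12 and the genes that overlap members were added after their values were seen. Depth limits the precision: at 3 counts or fewer a gene was taken as being at the floor. The alternatives were DESeq2 size factors, total counts, prior counts of 0.5 and 10, the deposited signal table, other count minimums, other fold thresholds, the Adamts proteases and Adamtsl genes apart, and length by the longest transcript.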

Additional observations from a re-analysis of the deposited data

How the results depend on the processing

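No paired analysis was possible because each condition had 1 library, which also leaves no replicate to omit. The log2 fold changes of the 26 members with at least 100 summed counts gave 206 values under the alternatives, of which 204 stayed within the interval of the gene. Other count minimums and the deposited table reuse the same counts with nearly the same scaling, so they could hardly move a value. The values outside the interval were those of Mmp2 (0.04) and Timp2 (-0.38) with total counts, where the median of all genes moved to 0.03. In that setting the summed log2 ratios were -0.0072 for Mmps, -0.094 for Adamts with Adamtsl genes and -0.10 for Timps, and the median of the matrix substrates was 0.072. The numbers of members at least 2-fold higher and lower, 1 and 1, became 0 and 1 with a prior count of 10, 2 and 2 without a count minimum, 2 and 5 at 1.5-fold and 0 and 0 at 4-fold. Of all genes, 275 were higher and 330 lower. These became 150 and 171 with a prior count of 10, 107 and 168 in the deposited table, 732 and 623 without a minimum, 132 and 157 with 50 and 60 and 79 with 200 summed counts, 698 and 817 at 1.5-fold and 49 and 52 at 4-fold. Filters, priors and thresholds change the number of genes by construction. The setting of the deposited table used the same counts with nearly the same scaling, over the 11624 genes it holds, and so is also a filter. Without a minimum the median was 0.054 for the Adam genes and -0.11 for the other matrix proteases. By the longest transcript in place of the merged exons, 11 of the 26 members kept their place in the order of levels and none moved by more than 3 places.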
